A study of Rattus norvegicus with 6 samples.

Results

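Myc and the genes of its Max network were followed across the 3 groups of a study of 3Y1, an embryonic fibroblast line of the rat. The 8 member genes are Myc, Mycn, Max, Mxi1, Mxd1, Mxd3, Mxd4 and Mnt. They were found by gene symbol in the array's annotation, where 10 probe sets named a single one of them, out of 31042 probe sets other than controls, which name 14217 genes. Every member had a probe set: Max and Mxi1 had 2, the others 1. The Vector in vitro group holds 3Y1 cells stably carrying an empty vector and grown in dishes. The MUC1-CD in vitro group holds 3Y1 cells that stably express MUC1-CD, the cytoplasmic tail of the mucin MUC1, grown the same way. The MUC1-CD in vivo group holds MUC1-CD cells from subcutaneous hindlimb tumors of female athymic mice, which lack T cells but keep macrophages, vessels and muscle. Each group had 2 arrays that the labels call biological replicates, and the 3Y1 cells of all 3 groups were stably transfected; tumor RNA also holds RNA of host tissue. The sources used here do not state whether the lines were clones or pools, how old the mice were or how many tumors stand behind an array. The study asked which genes go with transformation by the domain and with tumor growth.

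MYC is a transcription factor of the basic helix-loop-helix leucine zipper family that drives growth and division. It binds DNA as a pair with MAX, at the E-box CACGTG, and raises genes of ribosome production, nucleotide synthesis and metabolism. MAX also pairs with the MXD proteins, MXI1 and MNT, which occupy the same E-boxes, recruit SIN3 corepressors and oppose MYC. In cultured fibroblasts Myc is known as an early response gene of serum, and its messenger RNA and protein turn over quickly.

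The values are MAS5 signals, the brightness of each probe set after scaling of the array, on a linear scale. A change is a difference between group means of log2(signal + 16), given with limma's standard error (SE), and adjusted p values are limma's after Benjamini-Hochberg adjustment over the 18625 probe sets whose mean signal over the arrays was at least 61.6. This log scale understates changes of dim probe sets. A gene was represented by its brightest kept probe set, which gave 10037 tested genes. The Vector arrays stood apart: the 3' to 5' signal ratio of the Gapdh control was 11.5 and 17.8 on Vector replicates 1 and 2 and 1.11 to 1.18 on the other 4 arrays. The same ratio of the actin control was 4.15 on Vector replicate 1, 41.7 on Vector replicate 2 and 2.97 to 3.37 on the others, so the Vector arrays also differed from each other. In any comparison with Vector the group and its RNA quality cannot be told apart. The SD of the difference between replicates was 0.616 (log2) for Vector, 0.257 for MUC1-CD in vitro and 0.284 for MUC1-CD in vivo, while the fit shares 1 spread among the groups. When arrays were instead divided by their medians, the median over all kept probe sets went from 0.07 to -0.24 for MUC1-CD in vitro against Vector, from 0.05 to -0.21 for tumors against MUC1-CD in vitro, and from 0.12 to -0.45 for tumors against Vector. With it, the share of calls that were higher went from 54.7% to 33.7%, from 53.9% to 22.9% and from 56.5% to 25.7%. The 8 fibroblast markers summed to 105452 to 109942 in Vector, 75527 to 77134 in MUC1-CD in vitro and 95607 to 99527 in tumors. In MUC1-CD in vitro against Vector, 5 fell (Col1a1, Col1a2, Col3a1, Vim and S100a4) and 1 rose (Thy1). Of all tested genes, 24.9% fell and 21.2% rose in that comparison. Vim, Fn1 and S100a4 stayed at 12355 or more on each array, while Pdgfrb was at 368 or less. Among epithelial markers, the simple keratin and Epcam probe sets were at 59.1 or less, apart from Krt8 in Vector cells at 450 and 424; Cdh1 was at 13.3 or less in culture and at 537 and 425 in tumors.

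The E-box that all pairs of the network bind also stands before the listed start site of some of the network's own genes, so those stretches are shown. RefSeq promoter windows (build GRCr8) were matched for 6 members, Max, Mxi1, Mxd1, Mxd3, Mxd4 and Mnt, and not for Myc and Mycn. In the 250 bases before the window's start site, 3 of the 6 held CACGTG, a motif that reads the same on both strands, against 5.59% of 33469 windows of the same length. The variant CACGCG (7.14% of windows) and the TCF motif CTTTGAT (3.15%), both searched on either strand, were found in 0 of the 6. The 3 windows with an E-box follow, 5' to 3' on the gene's strand, with the E-box in capitals. The listed start site is that of the table's transcript, and the RefSeq gene record reaches upstream of it in all 3.
Max, chr6:101395291-101395540, minus strand: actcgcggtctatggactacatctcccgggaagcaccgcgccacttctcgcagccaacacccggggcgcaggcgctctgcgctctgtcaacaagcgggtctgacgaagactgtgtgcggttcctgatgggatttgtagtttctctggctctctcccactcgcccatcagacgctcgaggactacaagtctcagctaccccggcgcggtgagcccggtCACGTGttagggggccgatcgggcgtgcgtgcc
Mnt, chr10:60197709-60197958, plus strand: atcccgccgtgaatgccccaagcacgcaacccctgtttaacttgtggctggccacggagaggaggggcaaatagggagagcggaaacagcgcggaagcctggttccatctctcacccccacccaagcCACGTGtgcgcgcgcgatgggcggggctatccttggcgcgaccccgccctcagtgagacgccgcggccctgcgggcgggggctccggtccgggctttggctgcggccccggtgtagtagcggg
Mxd4, chr14:80786531-80786780, plus strand: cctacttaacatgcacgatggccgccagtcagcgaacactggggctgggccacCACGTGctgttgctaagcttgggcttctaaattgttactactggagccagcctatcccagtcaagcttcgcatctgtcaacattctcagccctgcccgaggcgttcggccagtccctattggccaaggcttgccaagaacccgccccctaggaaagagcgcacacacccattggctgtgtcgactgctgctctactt
The E-box begins 33 bases before the start in Max, 123 in Mnt and 197 in Mxd4. Those of Max and Mnt lie within the RefSeq gene record, and that of Mxd4 lies upstream of its record. A match of letters describes the window and says nothing about binding in these cells.

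Myc was far lower in both MUC1-CD groups than in Vector cells. Its signal was 3824 and 3012 on the Vector arrays, 228 and 227 on the MUC1-CD in vitro arrays, and 397 and 417 on the tumor arrays. The 3 groups did not overlap, in the order Vector, tumors, MUC1-CD in vitro. Vector cells had 15.0 times the mean signal of MUC1-CD cells in culture, and the log2 change was -3.81 (SE 0.16, limma adjusted p = 2.61e-05), the fall of rank 43 among 10037 genes. Tumors were 1.79 times MUC1-CD in vitro (log2 change 0.80, SE 0.16, adjusted p = 0.0196) and still lay 8.40 times below Vector (log2 change -3.01, SE 0.16, adjusted p = 3.68e-05). The change in culture ranged from -4.13 to -3.57 over all 16 alternative settings and stayed called in each. The rise in tumors was 0.54 (adjusted p = 0.0595) with arrays divided by their medians, and it lost the call when any MUC1-CD in vitro or MUC1-CD in vivo array was left out (0.76 to 0.83, adjusted p = 0.135 to 0.153).

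Mycn, the neural and embryonic relative of Myc, was dim. Its signal was 34.7 and 6.20 on the Vector arrays, 44.0 and 2.70 on the MUC1-CD in vitro arrays, and 119 and 86.7 on the tumor arrays. Both tumor arrays lay above all 4 culture arrays, which overlapped between the lines and differed up to 16.3 times between replicates. Its mean of 48.9 fell below the signal filter, so it was not tested with the others. Fitted with no filter, the tumor rise over MUC1-CD in vitro was 1.81 (SE 0.64, adjusted p = 0.142), which misses the threshold.

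**Figure D1:**
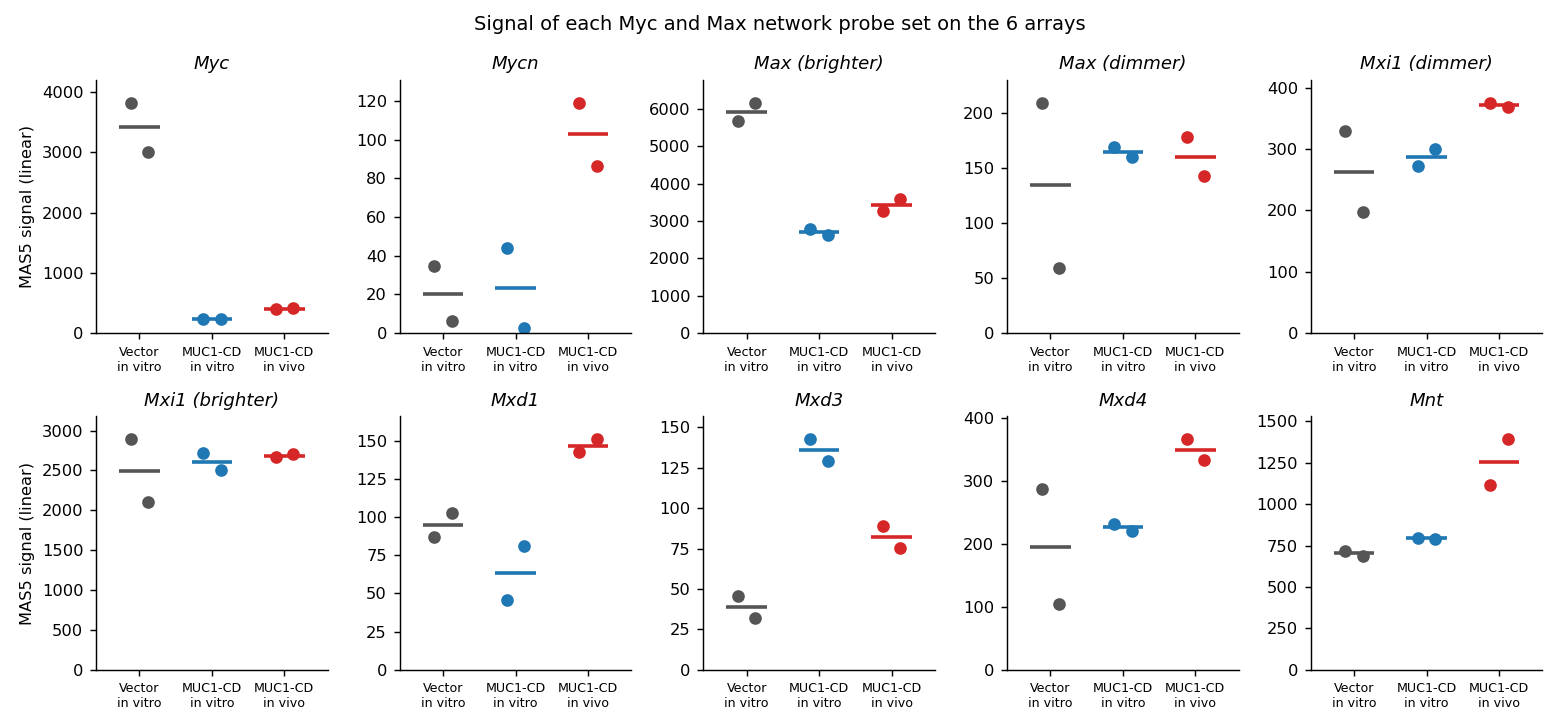
MAS5 signal (linear axis from 0) of the 10 member probe sets on the 6 arrays; points are arrays, bars are means of the 2 arrays of a group. Myc is at 3012 or more in Vector cells and at 417 or less on the other arrays, the brighter Max probe set is highest in Vector cells, and Mxd3 is highest in MUC1-CD cells in culture.

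Max, the obligate partner of MYC and of its antagonists, was also highest in Vector cells by its brighter probe set. That probe set read 5675 and 6160 in Vector, 2788 and 2620 in MUC1-CD in vitro, and 3262 and 3590 in tumors. The groups did not overlap and had the same order as those of Myc. The log2 change in culture was -1.12 (SE 0.10, adjusted p = 0.000336), and the difference between tumors and Vector was -0.79 (SE 0.10, adjusted p = 0.0011). Tumors against MUC1-CD in vitro gave 0.34 (SE 0.10, adjusted p = 0.0737), with a call when only those 4 arrays were fitted (0.34, adjusted p = 0.0041) and with quantile normalization (0.40, adjusted p = 0.0294). The dimmer Max probe set did not share this pattern: it read 209 and 58.9 in Vector, 169 and 160 in MUC1-CD in vitro, and 178 and 142 in tumors. Its Vector replicates differed 3.55 times, and its change in culture was 0.48 (SE 0.48, 95% interval -0.66 to 1.62, adjusted p = 0.45). When both Max probe sets were averaged, the fall in culture was -0.32 (adjusted p = 0.297), so the call for Max rests on the brighter probe set.

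Mxd3, a MAX partner of the MXD family that is known to be expressed in cells in S phase, was the antagonist that rose in culture. Its signal was 45.9 and 32.1 in Vector, 143 and 129 in MUC1-CD in vitro, and 89.1 and 75.6 in tumors. The groups did not overlap, and the order was MUC1-CD in vitro, tumors, Vector, the reverse of Myc and Max. The rise in culture was 1.47 (SE 0.25, adjusted p = 0.00394), and it was called in all 15 alternatives that measured it, with values of 0.96 to 1.79. Tumors were 0.85 above Vector (SE 0.25, adjusted p = 0.0297), a call lost in 9 of 15 alternatives. Tumors against MUC1-CD in vitro gave -0.63 (SE 0.25, adjusted p = 0.148), or adjusted p = 0.0388 in a fit of those 4 arrays alone.

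Mnt, the most widely expressed antagonist of MYC, was highest in tumors. Its signal was 719 and 686 in Vector, 798 and 791 in MUC1-CD in vitro, and 1118 and 1391 in tumors. The groups did not overlap, though the lines differed by only 0.17 in culture (SE 0.15, 95% interval -0.18 to 0.53, adjusted p = 0.377). Tumors rose by 0.64 over MUC1-CD in vitro (SE 0.15, adjusted p = 0.0328) and by 0.81 over Vector (SE 0.15, adjusted p = 0.00427). With arrays divided by their medians these were 0.37 (adjusted p = 0.156) and 0.23 (adjusted p = 0.268), neither called. The rise over MUC1-CD in vitro lost its call in 7 of 16 alternatives, among them the loss of any MUC1-CD array (0.48 to 0.80, adjusted p = 0.0988 to 0.229).

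Mxd1, an antagonist known to rise as cells stop dividing and differentiate, had its highest signal in tumors as well. It read 86.9 and 103 in Vector, 45.4 and 80.8 in MUC1-CD in vitro, and 143 and 151 in tumors. The groups did not overlap, but the MUC1-CD in vitro replicates differed 1.78 times. The difference in culture was -0.52 (SE 0.28, adjusted p = 0.176), and tumors rose by 1.08 over MUC1-CD in vitro (SE 0.28, adjusted p = 0.0464). This call lay close to the threshold and was lost in 9 of 15 alternatives, among them arrays divided by their medians (0.84, adjusted p = 0.0753).

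Mxd4 and Mxi1, the remaining antagonists, were not called in any comparison when all 6 arrays were fitted together with the deposited scaling. Mxd4 read 287 and 104 in Vector, 233 and 221 in MUC1-CD in vitro, and 366 and 334 in tumors, so both tumor arrays lay above the other 4. Its Vector replicates differed 2.77 times, and its change in culture was 0.35 (SE 0.40) in all arrays, 1.02 without Vector replicate 1 (adjusted p = 0.000565) and -0.32 without Vector replicate 2. Tumors against MUC1-CD in vitro gave 0.59 (SE 0.40, adjusted p = 0.366), or adjusted p = 0.00628 in a fit of those 4 arrays alone. The brighter Mxi1 probe set read 2888 and 2102 in Vector, 2714 and 2505 in MUC1-CD in vitro, and 2665 and 2700 in tumors. All 3 groups overlapped, and the differences lay between 0.04 and 0.12 (adjusted p = 0.551 to 0.896), with a 95% interval of -0.34 to 0.42 for tumors against MUC1-CD in vitro. Without Vector replicate 1 it was called higher in culture (0.31, adjusted p = 0.0105) and in tumors against Vector (0.35, adjusted p = 0.00484), and with arrays divided by their medians it was called lower in tumors against Vector (-0.47, adjusted p = 0.0437). The dimmer Mxi1 probe set read 330 and 197 in Vector, 273 and 301 in MUC1-CD in vitro, and 376 and 368 in tumors, and was not called in any comparison (adjusted p = 0.122 to 0.635).

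**Figure D2:**
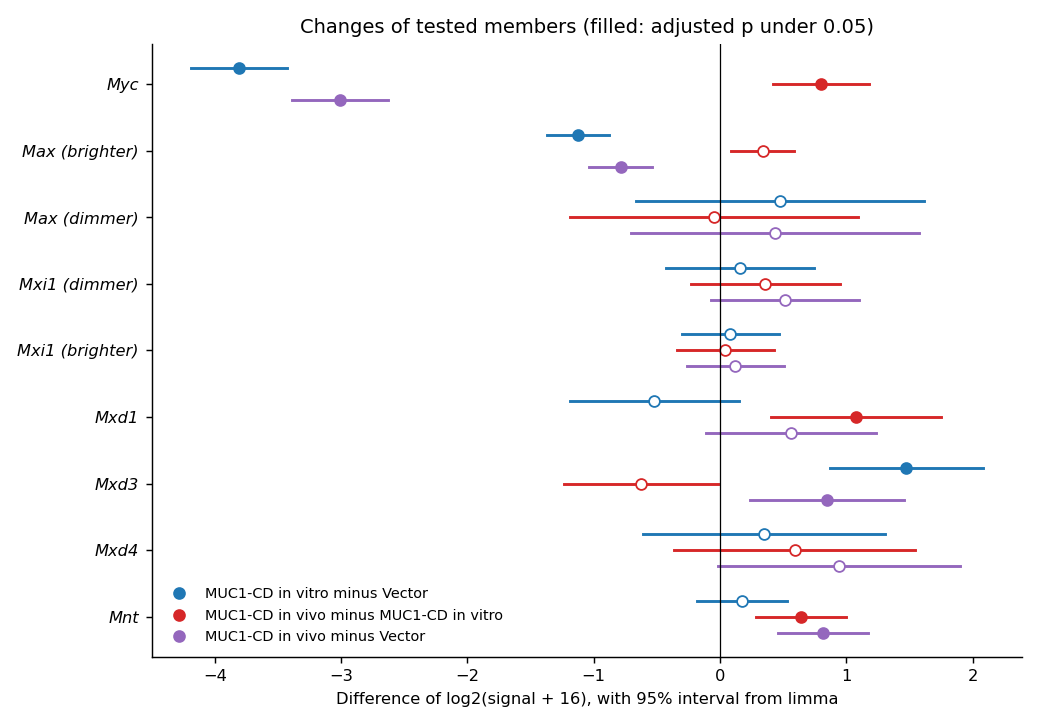
Difference of log2(signal + 16) for the 9 tested member probe sets in the 3 comparisons, with 95% intervals from limma; filled points have adjusted p under 0.05. Myc and the brighter Max probe set lie left of 0 in both comparisons with Vector, Mxd3 lies right of 0 in both, and the intervals of the dimmer Max probe set and of Mxi1 include 0.

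Of the 7 tested members, 1 was called higher and 2 lower in MUC1-CD in vitro against Vector, where 21.2% of all tested genes were called higher and 24.9% lower. In tumors against MUC1-CD in vitro, 3 were called higher and 0 lower, against 9.82% and 8.97% of all genes (limma, with Mxd3 at an unadjusted p = 0.0446). A fit of those 4 arrays alone called 5 higher (Max and Mxd4 besides Myc, Mnt and Mxd1) and 1 lower, but it also called 8049 of all probe sets where the joint fit called 2952. In tumors against Vector, 2 were called higher and 2 lower, against 24.8% and 26.6%. The comparisons share arrays, so their values are not independent of each other. With only 7 members, the counts in both comparisons with Vector do not set the network apart from other genes. In tumors against MUC1-CD in vitro, 3 of 7 called higher lay above the 9.82% of all genes. Each of those 3 calls was lost in some of the alternatives. Whether the network differs from other genes in that step was not tested.

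The tumor arrays also carried signal of other cell types. The host is a mouse and the probe sets are those of the rat, and how well each reads mouse RNA was not tested. Over 11 macrophage markers, the summed signal was 723 to 754 in Vector, 3041 to 3239 in MUC1-CD in vitro and 7280 to 7359 in tumors, and 6 of 7 tested markers rose over MUC1-CD in vitro. Cd14 made up most of the sum in culture, and Aif1 was at 0.80 and 0.40 there against 639 and 604 in tumors. The 8 skeletal muscle markers summed to 125 to 227 in MUC1-CD in vitro and 8315 to 9524 in tumors, with 7 of 7 tested markers higher. The 8 endothelial markers with a probe set summed to 170 to 224 and 2312 to 2426, with 3 of 3 tested markers higher. Aqp1 made up most of the tumor sum, at 1763 and 1550. Pecam1 and Kdr stayed at 27.5 or less in tumors. Vwf, also untested, was lower in tumors, at 9.7 and 10.2 against 24.3 and 21.1 in MUC1-CD in vitro. The 6 pericyte and stroma markers summed to 955 to 1068 and 2367 to 2369, with 3 of 4 tested markers higher. Cspg4 made up most of the MUC1-CD in vitro sum, at 931 and 855. It was lower in tumors, at 583 and 662, without a call (log2 change -0.51, limma adjusted p = 0.0982). A marker was tested only if its mean over all 6 arrays was at least 61.6. Many, such as Acta1 at 23.6 or less in culture, passed that filter only through their tumor signal. The counts of tested markers higher in tumors were thus largely set by the filter and are a description only. Of all tested genes, 9.82% were called higher in that step. The part of these cells in the tumor values of Myc, Mnt and Mxd1 was not tested, and in bulk tissue fewer cells of a type and less RNA per cell cannot be told apart. Per the labels, only tumors were frozen, homogenized and put through columns, so the preparation of the RNA and growth as a tumor cannot be told apart.

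Other partners around the network were measured by 4 tested genes of a list of 5 (Mycl, Mga, Mlx, Mlxip and Mlxipl). Mga, a large MAX partner of repressive complexes, read 538 and 958 in Vector, 222 and 234 in MUC1-CD in vitro, and 709 and 748 in tumors. It fell in culture (-1.59, SE 0.26, adjusted p = 0.00326) and rose in tumors over MUC1-CD in vitro (1.61, SE 0.26, adjusted p = 0.00966), with tumors and Vector overlapping. The rise was not called when any 1 MUC1-CD array was left out (1.57 to 1.65, adjusted p = 0.0839 to 0.0954). Mlx, the MAX-like partner of the glucose-sensing MLXIP proteins, read 2417 and 1904 in Vector, 1920 and 1917 in MUC1-CD in vitro, and 1077 and 1098 in tumors. It was not called in culture (-0.16, SE 0.14, adjusted p = 0.394) and fell in tumors (-0.81, SE 0.14, adjusted p = 0.0127), a call lost when any 1 MUC1-CD array was left out (adjusted p = 0.107 to 0.123). Mlxip fell in culture (-0.63, SE 0.18, adjusted p = 0.0263), a call lost without either MUC1-CD in vitro array (adjusted p = 0.0962 and 0.168). Mycl was not called in either step.

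Genes that MYC is known to activate were mostly lower in MUC1-CD cells. Of 30 tested members of this list, 17 fell and 1 rose in culture, with a median of -0.59 beside -0.04 over all tested genes, of which 24.9% fell and 21.2% rose. The count of falls ranged from 13 to 23 over 13 alternatives. The list shares genes with a MYC and ribosome list already examined in these arrays, so it is no independent evidence. Gnl3, a nucleolar GTPase, read 8116 and 7969 in Vector, 2061 and 2174 in MUC1-CD in vitro, and 2736 and 2634 in tumors. Apex1, a DNA repair endonuclease, read 4377 and 4313 in Vector, 1813 and 1715 in MUC1-CD in vitro, and 1487 and 1553 in tumors (change in culture -1.29, SE 0.10, adjusted p = 0.000199). The groups of both genes did not overlap, and both stood highest in Vector. Bop1 and Mybbp1a, also nucleolar, had log2 changes of -2.13 (adjusted p = 0.000447) and -1.49 (adjusted p = 0.000185). Cdk4, the kinase of D cyclins, fell by 1.55 (SE 0.20, adjusted p = 0.0011), and Nop56, of small nucleolar RNA particles, fell by 0.80 (SE 0.09, adjusted p = 0.000772). The 1 gene called higher was Eif4e, the cap-binding initiation factor, which rose by 0.87 (SE 0.17, limma adjusted p = 0.00653). Another 12 of the 30 were not called. Ncl, 1 of them, was also higher (log2 change 0.48, SE 0.18, limma adjusted p = 0.0707). By limma at an unadjusted p under 0.05, 2 of the 30 were higher, Eif4e and Ncl, and 18 were lower. Odc1, a widely used MYC target of polyamine synthesis, read 5069 and 4290 in Vector and 4845 and 4401 in MUC1-CD in vitro, with a difference of -0.01 (SE 0.15, adjusted p = 0.946).

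In tumors against MUC1-CD in vitro, where Myc itself was 0.80 higher, 2 of the 30 genes rose, 2 fell, and the median was -0.06 beside 0.03 over all genes, of which 9.82% rose and 8.97% fell. Pa2g4, a growth regulator of ribosome assembly, rose by 0.66 (SE 0.17, adjusted p = 0.0448), and Nop16, a nucleolar protein, by 0.50 (SE 0.13, adjusted p = 0.0439). Tfrc, the transferrin receptor, fell by 1.23 (SE 0.12, adjusted p = 0.00129), and Ldha, lactate dehydrogenase, fell by 0.37 (SE 0.07, adjusted p = 0.0164). Pa2g4 and Nop16 were not called with arrays divided by their medians (0.39, adjusted p = 0.146, and 0.23, adjusted p = 0.251), and neither they nor Ldha were called when any 1 MUC1-CD array was left out (adjusted p = 0.0555 to 0.311). The fall of Tfrc was called in all 15 alternatives.

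Genes that MYC is known to repress mostly fell in MUC1-CD cells in culture. Of 8 tested members, 0 rose and 6 fell (limma, median -0.59), where 21.2% of all genes rose and 24.9% fell with a median of -0.04, and 2 were higher at an unadjusted p under 0.05, Cdkn1b and Pdgfrb. Cdkn1a, the p21 inhibitor of cyclin-dependent kinases, read 7281 and 6939 in Vector, 2543 and 2032 in MUC1-CD in vitro, and 1508 and 1583 in tumors. It fell in culture (-1.64, SE 0.13, adjusted p = 0.0002) and again in tumors (-0.55, SE 0.13, adjusted p = 0.0346), where the call was lost in 5 of 15 alternatives (adjusted p = 0.0732 to 0.251). Ndrg2 fell by 2.74 in culture (SE 0.365, adjusted p = 0.00137) and Ndrg1 fell by 1.76 (SE 0.10, adjusted p = 5.7e-05). Both are named for their repression by the MYC family. Ndrg2 read 374 and 440 in Vector, 76.9 and 26.8 in MUC1-CD in vitro, and 141 and 165 in tumors, so its MUC1-CD in vitro replicates lay apart at dim signal. Clu, the chaperone clusterin, fell in both steps, by 0.63 (adjusted p = 0.00398) and by 0.67 (adjusted p = 0.0095), the latter not called when any 1 MUC1-CD array was left out (adjusted p = 0.0903 to 0.103). In tumors against MUC1-CD in vitro, 3 of the 8 rose and 2 fell, with a median of -0.02, where 9.82% of all genes rose and 8.97% fell. Gadd45a, a stress-response gene, rose by 1.51 (SE 0.19, adjusted p = 0.00357), Ndrg2 by 1.42 (SE 0.365, adjusted p = 0.0442) and the receptor gene Pdgfrb by 1.28 (SE 0.23, adjusted p = 0.0144). The rise of Ndrg2 was not among the results compared over the alternatives. Gadd45a lost its call in 3 of the left-out-array fits (adjusted p = 0.0507 to 0.0552) and Pdgfrb in 4 (adjusted p = 0.105 to 0.132). In tumors against Vector, where Myc was also lower, 2 of the 8 rose, Gadd45a (0.95, SE 0.19, adjusted p = 0.00569) and Pdgfrb (1.86, SE 0.23, adjusted p = 0.000886), and 5 fell, with a median of -1.15, where 24.8% of all genes rose and 26.6% fell.

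Of 19 tested genes for turnover and cofactors of MYC, 2 rose and 6 fell in culture, with a median of 0.09, beside 21.2% and 24.9% of all genes; these counts do not set the list apart. Gsk3b, the kinase that marks MYC for degradation, read 160 and 103 in Vector, 501 and 611 in MUC1-CD in vitro, and 830 and 781 in tumors (change in culture 1.98, SE 0.22, adjusted p = 0.000752). Aurka, a mitotic kinase that can stabilise MYCN, rose by 1.69 (SE 0.17, adjusted p = 0.000431) and fell in tumors by 0.81 (SE 0.17, adjusted p = 0.0219). Sin3b, a corepressor scaffold used by the MXD proteins, had a log2 change of -1.19 (SE 0.11, adjusted p = 0.000374), and Usp36, a nucleolar deubiquitinase of MYC, fell by 0.91 (SE 0.13, adjusted p = 0.00179). In tumors against MUC1-CD in vitro, 0 of the 19 rose and 3 fell (limma), where 9.82% of all tested genes rose and 8.97% fell. The 3 were Aurka, Hdac2 (-0.45, SE 0.09, adjusted p = 0.0199) and Ruvbl2 (-0.56, SE 0.13, adjusted p = 0.0321). Fbxw7, a ubiquitin ligase subunit for MYC, was at 0.695 (SE 0.192, unadjusted p = 0.00908, adjusted p = 0.0544). The 3 falls were not called when any 1 MUC1-CD array was left out (adjusted p = 0.107 to 0.23), those of Hdac2 and Ruvbl2 not without the trend (0.0752 and 0.0616), and that of Ruvbl2 not with the replicate block (0.0508).

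Of 11 tested regulators of Myc transcription, 3 rose and 4 fell in culture, with a median of -0.21, again beside 21.2% and 24.9% of all genes and with too few members to set the list apart. Lef1, a DNA-binding partner of beta-catenin, read 919 and 1255 in Vector, 236 and 241 in MUC1-CD in vitro, and 235 and 244 in tumors. It fell by 2.10 (SE 0.19, adjusted p = 0.000299). Tcf7, of the same family, read 566 and 615, then 1134 and 959, then 2289 and 2158 in the same order of groups, and rose in both steps (0.81, adjusted p = 0.00389, and 1.08, adjusted p = 0.00407). Ctnnb1, which encodes beta-catenin, fell in culture by 0.59 (SE 0.13, adjusted p = 0.012), a call lost with quantile normalization (-0.26, adjusted p = 0.154) and without either MUC1-CD in vitro array (adjusted p = 0.0854 and 0.052). Stat3 rose by 1.74 (SE 0.39, adjusted p = 0.0114), with Vector replicates at 1170 and 443, and lost the call without either MUC1-CD in vitro array (adjusted p = 0.0672 and 0.0662). In tumors against MUC1-CD in vitro, 2 of 11 rose, Tcf7 and Cnbp (0.39, SE 0.08, adjusted p = 0.0195), and 0 fell by limma, also at an unadjusted p under 0.05. Of all tested genes 9.82% rose and 8.97% fell in that step. Cnbp lost its call in 6 of 15 alternatives, down to 0.12 (adjusted p = 0.396) with arrays divided by their medians, and Tcf7 in 3 (adjusted p = 0.0549 to 0.0682).

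**Figure D3:**
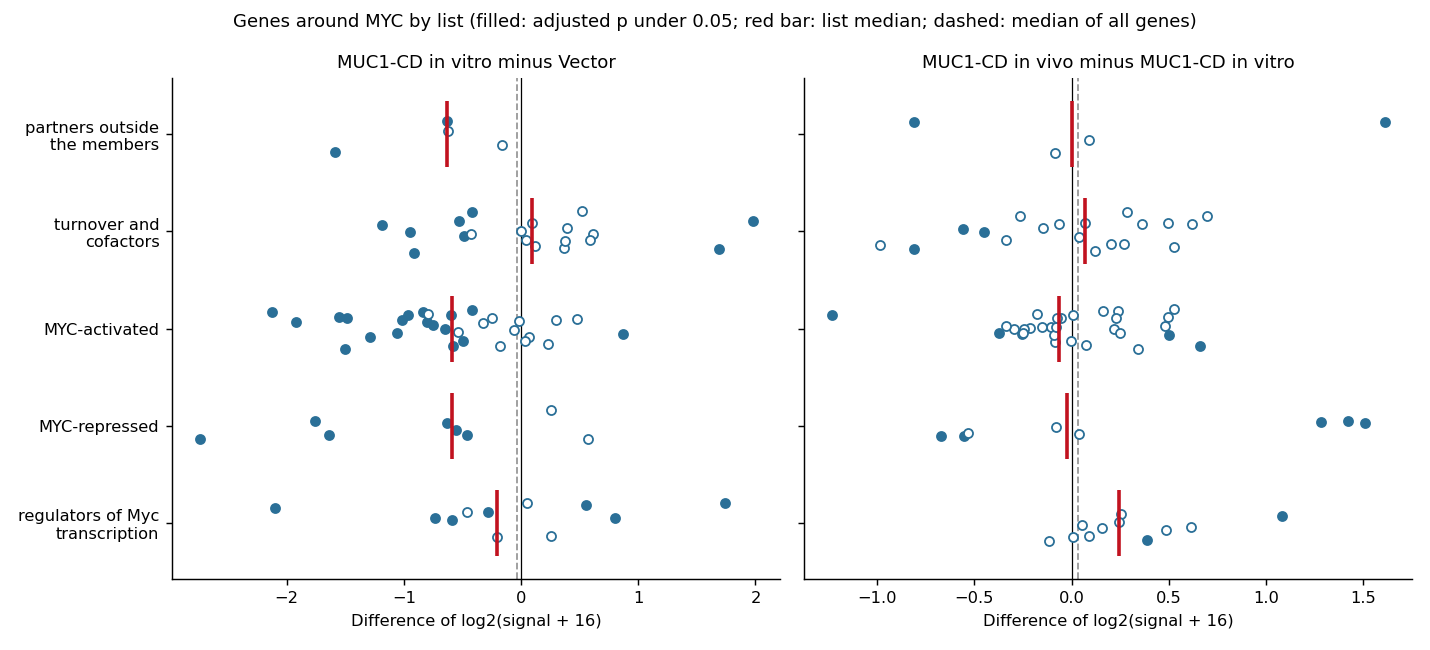
Difference of log2(signal + 16) of each tested gene of 5 lists around MYC, in MUC1-CD in vitro against Vector (left) and tumors against MUC1-CD in vitro (right); filled points have adjusted p under 0.05, red bars are list medians and the dashed line is the median of all tested genes. In culture the MYC-activated and MYC-repressed lists both have a median of -0.59, and in tumors both lie near 0.

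Genes with CACGTG in the 250-base window were set beside those without. In culture 19.1% of 765 such genes were called higher and 26.1% lower, with a median of -0.11, against 21.2% and 24.5% of 7673 genes without it, with a median of -0.03. In tumors against MUC1-CD in vitro the shares were 9.41% and 9.41%, against 9.24% and 8.78%. In tumors against Vector they were 22.6% and 28.5%, against 24.6% and 26%. The differences between these shares were not tested.

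Myc lies on chromosome 7 of GRCr8, among genes that were themselves mostly lower in MUC1-CD cells in culture. Of its 20 nearest measured genes, 10 on each side, 11 fell and 5 rose, where 24.9% of all tested genes fell and 21.2% rose. The median of the 20 was -0.62, beside -0.65 over the 656 other measured genes of the chromosome and -0.04 over all tested genes. Changes of the 20 ranged from -2.30 (Phf20l1) to 3.02 (Khdrbs3), so Myc fell further than each of them. The nearest measured gene on one side, the long noncoding RNA gene Pvt1, fell by 1.19 (SE 0.13, adjusted p = 0.000721). The nearest on the other side, Trib1, a pseudokinase gene, rose by 1.31 (SE 0.26, adjusted p = 0.00747). Ndrg1, of the list of repressed genes, is number 7 of the measured genes on the side of Pvt1. In tumors against MUC1-CD in vitro, Pvt1 differed by 0.03 (SE 0.13, adjusted p = 0.906) and Trib1 by 0.88 (SE 0.26, adjusted p = 0.0688), and the median of the 20 was 0.21. The 20 genes around Max on chromosome 6 had a median of -0.63 in culture, with 13 lower and 3 higher, beside -0.26 over the chromosome. Around Mxd3 on chromosome 17 the median was -0.05, with 3 higher and 2 lower, and around Mnt on chromosome 10 it was -0.05 in tumors against MUC1-CD in vitro. The counts around Max and Mxd3 stand beside the same 24.9% lower and 21.2% higher of all tested genes in culture. The number of gene copies was not measured here.

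**Figure D4:**
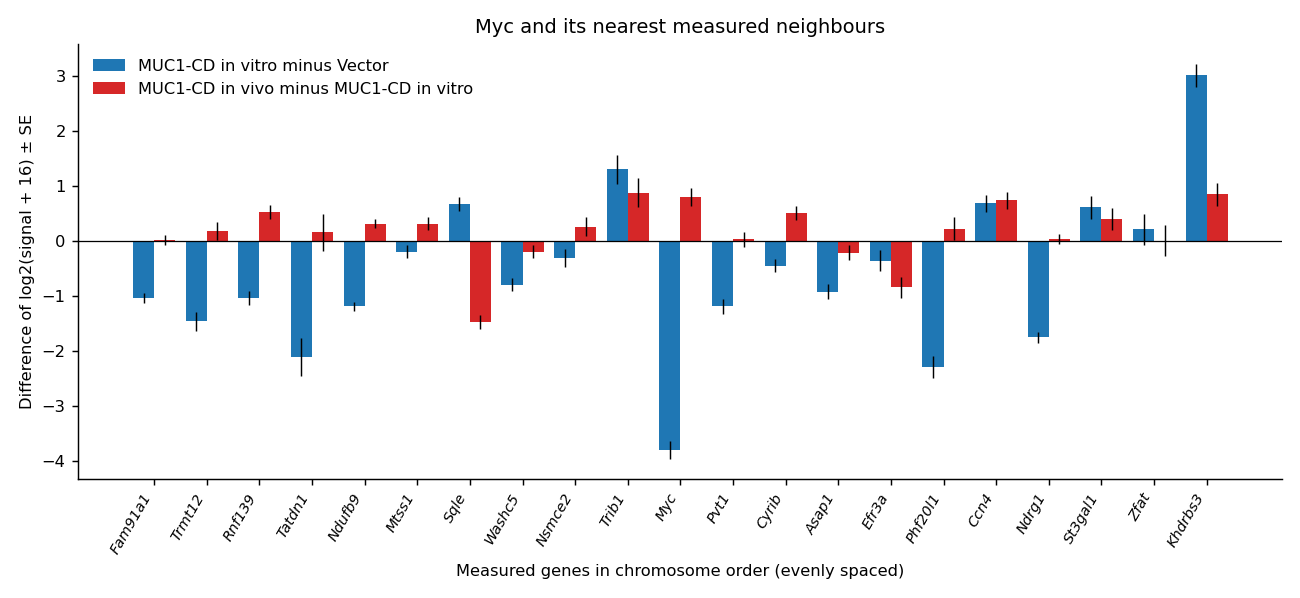
Difference of log2(signal + 16) ± SE for Myc and its 10 nearest measured genes on each side, in chromosome order with even spacing. Bars of MUC1-CD in vitro against Vector are mostly below 0, that of Myc is the lowest at -3.81, and Khdrbs3 and Trib1 are among those above 0.

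The genes whose profile lay nearest to that of Myc were found by the root mean square difference of centred log2(signal + 16) over the 6 arrays. They were Ifi30, a lysosomal thiol reductase (0.16), Pltp, a phospholipid transfer protein (0.19), the endopeptidase gene Mme (0.24), the muscle Z-disc gene Ldb3 (0.24) and Veph1 (0.25). Ifi30 read 1042 and 1123 in Vector, 61.7 and 64.6 in MUC1-CD in vitro, and 120 and 149 in tumors. Pltp read 1448 and 1068, then 75.3 and 55.4, then 172 and 147. Both were high in Vector, lowest in MUC1-CD in vitro and slightly higher in tumors. Veph1 read 230 and 183 in Vector and 9.4 or less on each MUC1-CD array, so its log values there rest largely on the added 16. Its difference between tumors and MUC1-CD in vitro was 0.23, beside 0.80 for Myc. The 6 arrays form 3 groups, so this likeness is a description of a group pattern that many genes share. Of the other tested members, Max stood nearest to Myc (1.18), at rank 875 of 10036 genes, and Mxd3 farthest (2.23), at rank 9006.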

How the data were processed

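RNA of 6 rat samples was measured on Rat Genome 230 2.0 arrays. The authors deposited MAS5 signals, a linear intensity per probe set; MAS5 is named in the submitters' processing notes. Its version, detection calls and filters are not stated in the sources used. Per the values, the deposited intensity columns already share a 2% trimmed mean on all arrays, and that scaling was kept. Of 31099 probe sets, 57 controls served only to describe the arrays. The platform annotation named a single gene for 20826 probe sets and several for 436, which were left unnamed. Symbols were updated through Entrez identifiers to GRCr8.

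Probe sets below the 40th percentile of mean signal (61.6) were left out. The 6 arrays entered 1 limma fit (version 3.58.1, R 4.3.3) of log2(signal + 16) on group, with eBayes and a mean-variance trend (residual degrees of freedom 3, median prior 3.70). Tests are 2-sided, with a threshold of 0.05 after adjustment. They rest on 2 arrays a group, and their number limits the precision. The fit was tried on data simulated with the same spread in all groups. That leaves out the wider spread of the Vector replicates.

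The members and the lists were chosen with earlier results of these data known. Named genes are all members, up to 4 genes per list and step with the smallest p, the 5 nearest profiles to Myc and its nearest measured genes on each side; other list genes in the text were chosen after their values were seen. Replicate numbers pair nothing in the labels, so the fit has no replicate term. Alternatives covered pseudocounts, filters, scaling, trend, replicate number, averaged probe sets, fits of the compared groups alone and each array left out.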

Additional observations from a re-analysis of the deposited data

How the results depend on the processing

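Members, counts of calls, and up to 4 called genes per list and step with the smallest p were compared over up to 16 alternatives. These took pseudocounts of 1 and 64, no filter and a 60th percentile filter, 2 other scalings and no trend. They also took a replicate block, averaged probe sets, the compared groups alone, and each array left out. The fall of Myc in MUC1-CD cells in culture and its difference between tumors and Vector kept direction and call in all 16 (-4.13 to -3.57 and -3.60 to -2.84). Its rise in tumors over MUC1-CD in vitro was positive in all 16 (0.54 to 0.84) but lost the call with arrays divided by their medians (0.54) and without any MUC1-CD in vitro or in vivo array; over left-out arrays it ranged from 0.76 to 0.83. Members called higher in culture numbered 0 with the 60th percentile filter, which does not test Mxd3, and 1 to 3 over left-out arrays. Members called lower in culture and in tumors against Vector numbered 1 with averaged probe sets, since Max then missed the threshold. Members called higher in tumors over MUC1-CD in vitro numbered 0 with median scaling, 1 with the replicate block, 5 in the fit of the compared groups alone, and 0 to 5 over left-out arrays; 1 was called lower in that fit, and 0 to 1 over left-out arrays. Members called higher in tumors against Vector numbered 1 with no filter, 1 with the 60th percentile filter, 0 with median scaling, 1 with quantile normalization, 1 in the fit of the compared groups alone, and 1 to 4 over left-out arrays. Called probe sets numbered 4413 to 11519 in culture, 607 to 8048 between tumors and MUC1-CD in vitro, and 5958 to 12401 between tumors and Vector over left-out arrays, where a group left with 1 array borrows its spread from the other groups; the fit of tumors and MUC1-CD in vitro alone called 8049 against 2952 with Vector in the fit. The counts of falls among MYC-activated genes, an alternative chosen after seeing the data, ranged from 13 to 23.

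Values that changed sign belonged to members with no call in that comparison. With median scaling Mxi1 was -0.24 in culture, -0.23 between tumors and MUC1-CD in vitro, and -0.47 between tumors and Vector (adjusted p = 0.0437, a call), and Mnt was -0.14 in culture. Over left-out arrays Mxi1 ranged from -0.15 (without Vector replicate 2) to 0.31 in culture, from -0.11 (without Vector replicate 2) to 0.35 between tumors and Vector, and from -0.02 (without MUC1-CD in vitro replicate 2) to 0.10 between tumors and MUC1-CD in vitro. Mxd4 in culture ranged from -0.32 (without Vector replicate 2) to 1.02 (without Vector replicate 1). The cause of these changes was not tested.

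The replicate block, which treats same-numbered arrays as pairs, left Myc at -3.81 in culture (adjusted p = 0.000106) and took the calls of Mnt (0.64, adjusted p = 0.055) and Mxd1 (1.08, adjusted p = 0.0528) in tumors. The differences between replicates 1 and 2 correlated at -0.04 to -0.02 between groups across probe sets. The labels give same-numbered samples only a shared number, and whether they share a batch was not tested.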
